A study of Homo sapiens with 28 samples.

Results

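Compound B was given at 100 nM for 24 h to NCI-H2009 cells (H2009), and RNA was compared with that of untreated H2009 cells. The comparison rests on 4 of the 28 samples of the series, 2 libraries with compound B and 2 without, taken from the authors' table of gene levels for compounds B and C. A further 2 H2009 libraries, from cells given 100 nM of compound C for the same 24 h, served as a background check and entered the estimate of the spread. H2009 is an established line from a human lung adenocarcinoma, a non-small-cell lung cancer, and its genotype is labelled WT in all 6 libraries. Cells were treated, or left untreated, in culture dishes and lysed there. The untreated cells were not labelled as having received a vehicle. The labels do not say whether replicates came from separate cultures, so the spread behind the p-values may be technical. The fit takes out the difference between replicate numbers and pools the spread over genes. That spread is therefore not the SD printed beside a mean. Both compounds are known here only by their code names, with no structure given.

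The series is about RUVBL1 and RUVBL2, related AAA+ ATPases that form ring-shaped complexes. With RPAP3 and PIH1D1 they make the R2TP chaperone, which joins prefoldin-like subunits in the PAQosome. This chaperone is known to help assemble RNA polymerases, the U5 spliceosomal particle, box C/D small nucleolar ribonucleoproteins (snoRNPs) and kinases of the PIKK family. RUVBL1 and RUVBL2 are also subunits of the TIP60, SRCAP and INO80 chromatin complexes.

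Levels are FPKM, counts of sequenced fragments scaled to transcript length and to the total of the library, so they are relative to the rest of each library. Of 13481 genes in the table, 11712 had a mean of at least 1 FPKM over the 6 H2009 libraries and were tested, and 71 were listed at 0 in all 6. Changes are differences of log2(FPKM + 1), compound B minus untreated, fitted with limma with the replicate number as a block, and a gene was called at an adjusted p under 0.05. The added 1 makes these changes smaller than the fold change of a gene with low FPKM. Within the 11712 genes, the summed FPKM was 524750 and 502890 with compound B, 631810 and 628600 in untreated cells, and 572990 and 748430 with compound C. In each library, 183 to 266 genes were listed at 0. Of 13 epithelial and lung adenocarcinoma markers, 10 were in the table, and all 10 had a mean of at least 1 FPKM. The lung markers NAPSA, SFTPB and SFTPC were absent from the table. Of 9 squamous markers, 8 were in the table and 2 reached that mean. Of 7 fibroblast markers, 2 were in the table and 1 reached it, and of 7 leukocyte markers, 1 was in the table and reached it. None of 5 endothelial markers was listed. In bulk RNA, a change in the number of cells in some state cannot be told apart from a change in the RNA of each cell.

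Compound B was followed by a change in 4711 genes, 40.2% of those tested (limma, adjusted over all 11712 genes). Of these, 2314 rose (19.8%) and 2397 fell (20.5%), and 535 rose and 456 fell by more than 1 on the log2 scale. The rises include 207 of the 245 genes that passed the filter only through their compound B libraries, while 0 of those 245 were called lower. The median change over all tested genes was -0.02. The count depends on the block: without it, 548 genes were called, 346 higher and 202 lower. It also depends on each library, being 3100 without compound B replicate 1, 2813 without compound B replicate 2, 2473 without untreated replicate 1 and 2849 without untreated replicate 2. For 4695 of the 4711 genes the change had the same sign in both replicates. Genes were called from the mean of these same 2 changes, so a shared sign was largely fixed by the call. Over all 11712 tested genes, the changes within replicate 1 and within replicate 2 had a Pearson r of 0.86. Both compound B libraries lay above both untreated libraries for 2989 genes and below them for 3409. The 95% confidence interval of a change reached 0.36 to either side in the median gene.

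**Figure D1:**
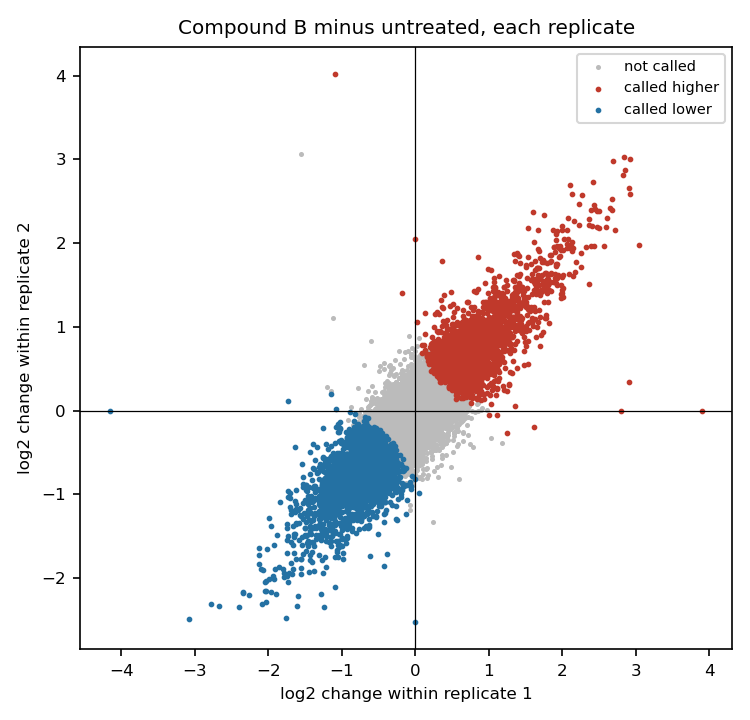
Change with compound B in replicate 1 (x axis) and in replicate 2 (y axis), each as the difference of log2(FPKM + 1) from the untreated library with the same number, for the 11712 tested genes. Red points are genes called higher and blue points genes called lower. Of the 4711 coloured points, 4695 lie on the same side of 0 on both axes, which the call largely fixes.

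For each group of genes below, the counts are genes that rose and fell in the fit with the block. The figures in parentheses give, in the same order, the counts without the block ("unblocked") and the lowest to highest counts when each of the 4 compound B and untreated libraries was left out in turn ("left-out"). Where quantile normalization turned the median or moved it by over 1.5 times, its counts and median follow ("quantile"). They are also given for some lists in which a count moved. For some lists, the counts of a fit of the 4 compound B and untreated libraries alone follow too ("4-library"). A list without these figures is not shown to be unmoved. Where a gene kept its call only with the block, its adjusted p without the block stands beside the main value. Each mean is given ± SD with n = 2, compound B first. The members of each group were called with compound C in 0 cases, and no group count was tested against other genes. The counts are to be read against the 19.8% of all tested genes that rose and the 20.5% that fell. Members that reached 1 FPKM only through compound B stayed in the counts, as such genes did in these shares, which favours rises. Those shares depended on the level of expression. At 1 to 5 FPKM, 30.1% rose and 17.7% fell, and at 100 FPKM and more, 3.76% rose and 22% fell, with a median change of -0.33. The lists were not matched for level, so few rises in a list of highly expressed genes may reflect their level. Neither share was above that of all tested genes for the PIKK, U5, homologous recombination, cytosolic ribosomal, respiratory chain, NRF2 and adhesion lists.

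RUVBL1, an ATPase at the centre of the series, had 70.3 and 84 FPKM with compound B and 92.4 and 110 FPKM in untreated cells. Both compound B libraries lay below both untreated libraries, but the difference did not pass the test, at a log2 change of -0.39 (SE 0.22, adjusted p = 0.154). Its partner RUVBL2 had 155 and 186 FPKM with compound B and 232 and 225 FPKM in untreated cells, again without overlap, with a log2 change of -0.43 (SE 0.24, adjusted p = 0.156). In the PAQosome, 1 rose and 4 fell of 11 tested, with a median log2 change of -0.43 (unblocked 0 and 0, left-out 0 and 1 to 4, quantile 1 and 4 with median -0.23, 4-library 1 and 7). The prefoldin subunit PFDN2 fell, with 71.2 and 82.4 FPKM with compound B and 161 and 178 FPKM in untreated cells. It had a log2 change of -1.13 (SE 0.23, adjusted p = 4.58e-05, and 0.0531 without the block), and the groups did not overlap. Among the PIKK kinases and the TTT chaperone that brings them to R2TP, 1 rose and 1 fell of 9 tested, with a median log2 change of 0.15 (unblocked 0 and 0, left-out 0 to 1 and 0 to 1). The median of this small list is of uncertain sign, being -0.03 without untreated replicate 1. For the proteins of the U5 particle, 0 rose and 2 fell of 12 tested, with a median log2 change of -0.31 (unblocked 0 and 0, left-out 0 and 1 to 2). Under quantile normalization, 0 rose and 1 fell, with a median log2 change of -0.22. SNRNP40, a WD-repeat protein of the U5 particle, fell (56.7 ± 14.8 against 131 ± 12.8 FPKM, log2 change -1.22, adjusted p = 9.56e-06, 0.0857 without the block).

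The chromatin complexes that share RUVBL1 and RUVBL2 held some of the larger falls. KAT5, the TIP60 acetyltransferase itself, had 3.57 and 4.01 FPKM with compound B and 17.8 and 19.6 FPKM in untreated cells, and 16.7 and 17.8 FPKM with compound C. The untreated and compound C libraries were several times above the compound B libraries, and the fit gave a log2 change of -2.04 (SE 0.18, adjusted p = 1.41e-14). Of the TIP60 complex, 0 rose and 6 fell of 16 tested, with a median log2 change of -0.25 (unblocked 0 and 2, left-out 0 and 4 to 6, quantile 0 and 6 with median -0.13). ING3, a reader of methylated histone H3, fell as well (4.64 ± 0.758 against 17.9 ± 1.3 FPKM, log2 change -1.75, adjusted p = 1.5e-11), as did YEATS4, which binds acetylated histones (23.7 ± 4.3 against 57.6 ± 4.65 FPKM, log2 change -1.26, adjusted p = 2.39e-06, 0.0634 without the block). In the SRCAP and INO80 complexes with the histone variant H2A.Z, 0 rose and 5 fell of 17 tested, with a median log2 change of -0.25 (unblocked 0 and 2, left-out 0 and 2 to 4). The members that fell most were MCRS1 (19.4 ± 1.72 against 52.2 ± 8.06 FPKM, log2 change -1.38, adjusted p = 6.09e-08) and ACTR5, an actin-related subunit of INO80 (3.43 ± 0.122 against 8.24 ± 1.18 FPKM, log2 change -1.06, adjusted p = 7.96e-07). In the fit with the block neither list had a member that rose.

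Other client complexes showed falls and a rise of RNA polymerase II's largest subunit. Among snoRNP proteins and their assembly factors, 0 rose and 7 fell of 13 tested, with a median log2 change of -0.53 (unblocked 0 and 1, left-out 0 and 1 to 3). GAR1, a core protein of box H/ACA particles, fell (12.1 ± 0.454 against 30.2 ± 8.09 FPKM, log2 change -1.22, adjusted p = 5.61e-07). Of the RNA polymerase subunits, 1 rose and 10 fell of 31 tested, with a median log2 change of -0.26 (unblocked 0 and 0, left-out 1 and 4 to 9, quantile 2 and 8 with median -0.16). POLR2A, the catalytic subunit of RNA polymerase II, had 192 and 105 FPKM with compound B and 72.8 and 33.5 FPKM in untreated cells. The levels of the replicates differed strongly within each group, but both compound B libraries lay above both untreated libraries, with a log2 change of 1.51 (SE 0.22, adjusted p = 6.15e-08, and 0.179 without the block). The polymerase III subunit POLR3E fell (6.87 ± 0.836 against 16.8 ± 2.73 FPKM, log2 change -1.17, adjusted p = 2.99e-07, 0.054 without the block), as did the polymerase I subunits POLR1A (6.04 ± 0.454 against 13.9 ± 1.82 FPKM, log2 change -1.08, adjusted p = 3.9e-06, 0.0965 without the block) and POLR1B (16.4 ± 2.29 against 30.6 ± 4.13 FPKM, log2 change -0.86, adjusted p = 0.000212, 0.0925 without the block).

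**Figure D2:**
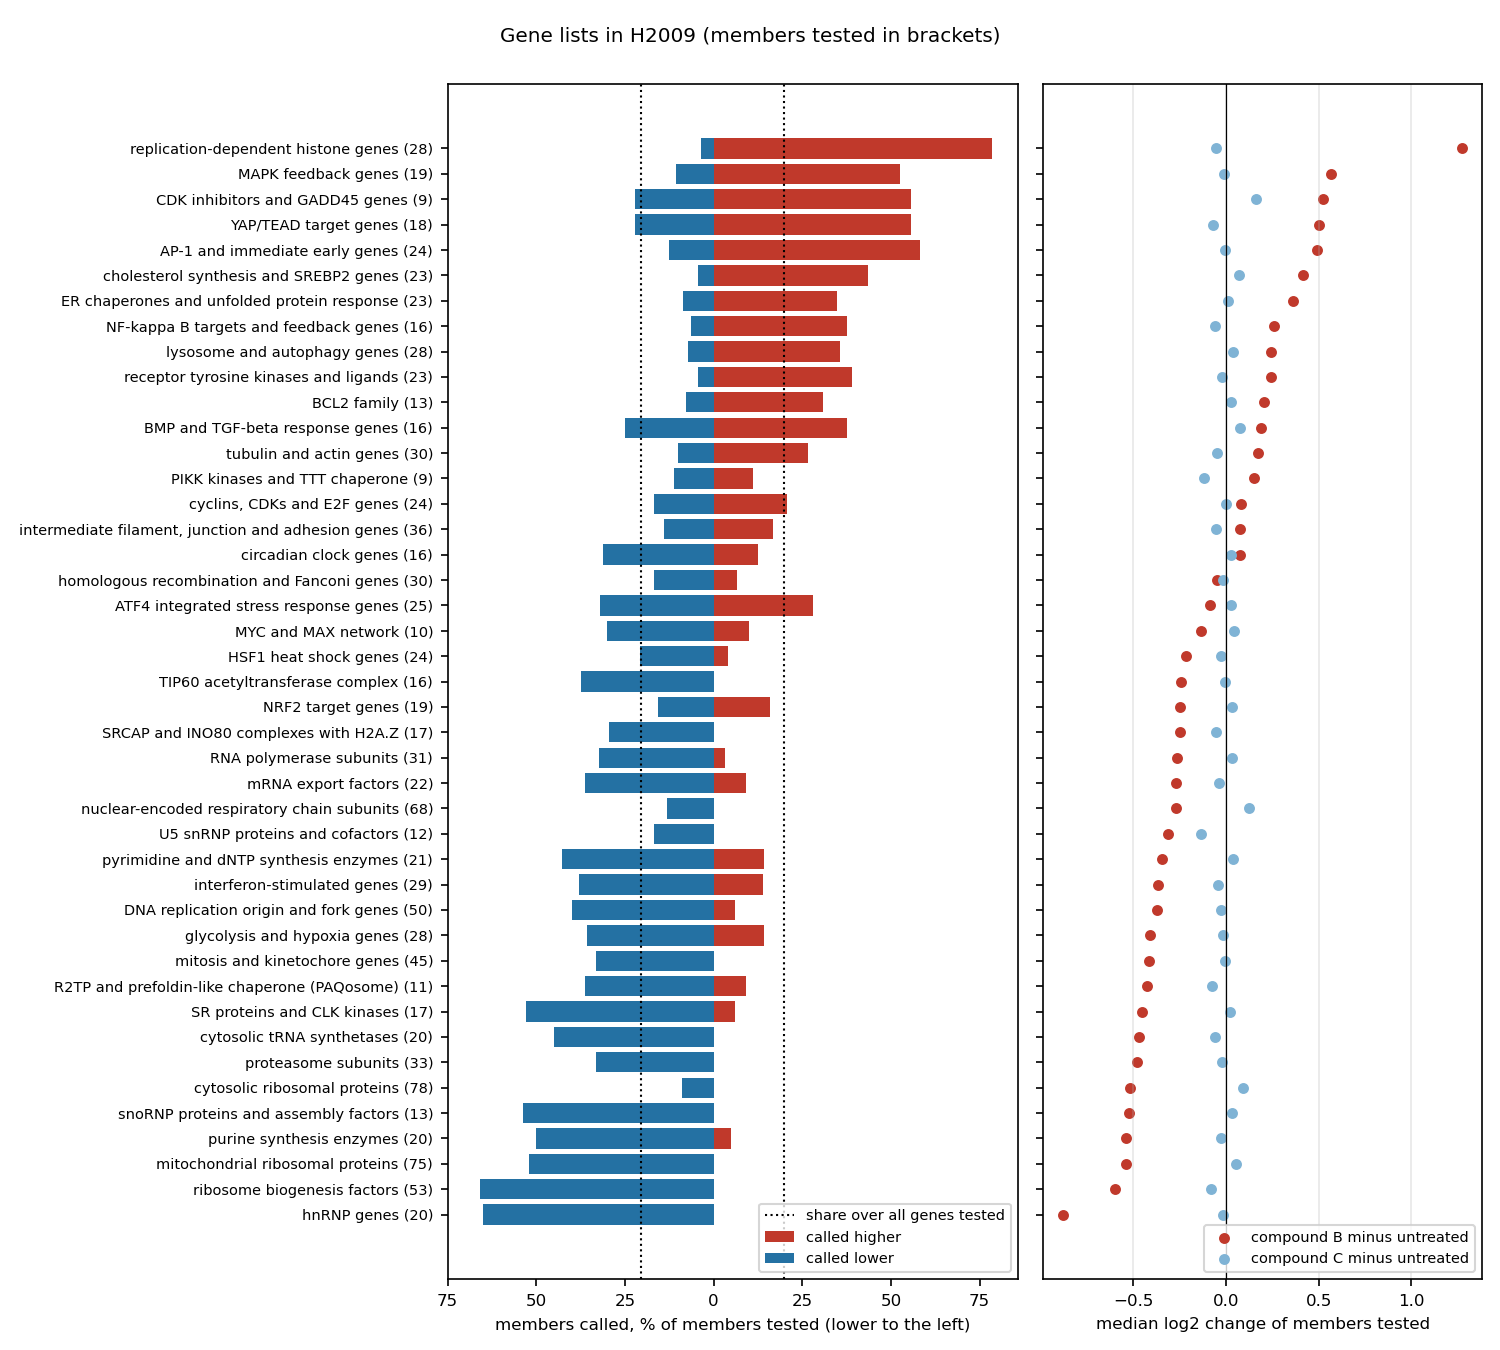
Share of tested members called lower (blue, left) and higher (red, right) in each gene list reported here, with dotted lines at the shares over all tested genes (20.5% and 19.8%), and beside it the median log2 change of each list with compound B (red) and compound C (light blue). The compound B medians run from histone genes at 1.27 to hnRNP genes at -0.88, while the median over all 11712 tested genes was -0.02.

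Many genes for RNA-binding proteins of the nucleus fell and a few rose. Among hnRNP genes, whose proteins package nascent transcripts and steer splicing, 0 rose and 13 fell of 20 tested and 22 listed, with a median log2 change of -0.88 (unblocked 0 and 6, left-out 0 and 9 to 11). HNRNPA1, a repressor of splice sites, had 159 and 187 FPKM with compound B and 657 and 834 FPKM in untreated cells. All compound B values were far below all untreated values, with a log2 change of -2.10 (SE 0.27, adjusted p = 3.96e-09). HNRNPD, also called AUF1 and known for binding AU-rich elements, had 77.4 and 96.2 FPKM with compound B and 319 and 473 FPKM in untreated cells. Its groups were as far apart, with a log2 change of -2.16 (SE 0.25, adjusted p = 1.3e-10), and its paralog HNRNPDL fell likewise (19.7 ± 7.26 against 86.4 ± 25.7 FPKM, log2 change -2.09, adjusted p = 8.33e-13). Several of these genes have processed pseudogenes or close paralogs, so reads may be shared among copies. Among SR proteins and the CLK kinases that phosphorylate them, 1 rose and 9 fell of 17 tested and 18 listed, with a median log2 change of -0.46 (unblocked 0 and 1, left-out 0 to 2 and 2 to 5). SRSF1, the founding SR splicing factor, fell (41 ± 0.915 against 107 ± 13.1 FPKM, log2 change -1.35, adjusted p = 6.37e-07), as did TRA2B (55.2 ± 12.7 against 144 ± 50.3 FPKM, log2 change -1.34, adjusted p = 1.4e-06, 0.0965 without the block). Of mRNA export factors, 2 rose and 8 fell of 22 tested, with a median log2 change of -0.27 (unblocked 0 and 2, left-out 1 and 4 to 6, quantile 2 and 8 with median -0.11). The nearly identical RNA helicases of the export pathway both fell, DDX39A with 16.6 and 18.4 FPKM with compound B and 73.7 and 95.3 FPKM in untreated cells. The untreated libraries exceeded those with compound B in each case, giving a log2 change of -2.20 (SE 0.21, adjusted p = 4.56e-13), and DDX39B changed in the same direction (45 ± 0.752 against 143 ± 11.4 FPKM, log2 change -1.65, adjusted p = 1.12e-08). By contrast NXF1, the main mRNA export receptor, rose (63.5 ± 4.76 against 30.2 ± 3.04 FPKM, log2 change 1.05, adjusted p = 1.67e-05, 0.0531 without the block). FUBP1, which binds single-stranded regulatory DNA and RNA, was also among the 15 largest falls (21 ± 1.04 against 89.8 ± 9.21 FPKM, log2 change -2.04, adjusted p = 2.62e-12).

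Many factors that build ribosomes, and many mitochondrial ribosomal proteins, fell, and in the fit with the block none of the 3 ribosome lists had a member that rose. Among ribosome biogenesis factors, 0 rose and 35 fell of 53 tested and 54 listed, with a median log2 change of -0.60 (unblocked 0 and 4, left-out 0 and 16 to 18). UTP18, part of the small-subunit processome, had 19.1 and 25.7 FPKM with compound B and 63.2 and 102 FPKM in untreated cells. Its compound B levels were below both untreated levels, with a log2 change of -1.81 (SE 0.21, adjusted p = 9.88e-11), and MPHOSPH10, of the same processome, fell too (20.9 ± 0.488 against 57.9 ± 21.2 FPKM, log2 change -1.38, adjusted p = 1.85e-07). NPM1, the abundant nucleolar protein nucleophosmin, had 975 and 945 FPKM with compound B and 2362 and 2513 FPKM in untreated cells. It was among the 5 called genes that lost most FPKM, with a log2 change of -1.34 (SE 0.34, adjusted p = 0.00103, and 0.0797 without the block), yet its call was lost when any 1 of the 4 libraries was left out (adjusted p = 0.0864 without compound B replicate 1, 0.234 without compound B replicate 2, 0.16 without untreated replicate 1 and 0.0697 without untreated replicate 2). For cytosolic ribosomal proteins, 0 rose and 7 fell of 78 tested and 79 listed, with a median log2 change of -0.52 (unblocked 0 and 0, left-out 0 and 0 to 1, quantile 2 and 3 with median -0.04, 4-library 0 and 60). Their share called lower, 8.97%, was under the 20.5% of all tested genes. The count depends on the libraries that set the spread, and the median on the scaling. RPS6 and RPL27 were also among the 5 largest losses of FPKM of called genes, RPS6 with 1430.2 and 1593 FPKM with compound B and 2858 and 2767 FPKM in untreated cells. For RPL27 the levels were 1483 and 1383 FPKM with compound B and 2755 and 2585 FPKM in untreated cells. Neither gene's groups overlapped, and the log2 changes were -0.90 for RPS6 (adjusted p = 0.0364) and -0.90 for RPL27 (adjusted p = 0.0373). Leaving out a library ended both calls, with adjusted p = 0.325 without compound B replicate 1, 0.484 without compound B replicate 2, 0.573 without untreated replicate 1 and 0.179 without untreated replicate 2 for RPS6 and adjusted p = 0.236 without compound B replicate 1, 0.581 without compound B replicate 2, 0.561 without untreated replicate 1 and 0.177 without untreated replicate 2 for RPL27. Without the block, they were at adjusted p = 0.247 and adjusted p = 0.265. For mitochondrial ribosomal proteins, 0 rose and 39 fell of 75 tested, with a median log2 change of -0.54 (unblocked 0 and 2, left-out 0 and 13 to 27). MRPL54 fell most (24.5 ± 5.5 against 103 ± 22.7 FPKM, log2 change -2.03, adjusted p = 1.28e-11), followed by MRPL27 (50.9 ± 1.82 against 158 ± 25.7 FPKM, log2 change -1.60, adjusted p = 4.31e-08).

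The promoter of UTP18 is shown as that of a named ribosome biogenesis factor with a single listed start. In RefSeq on GRCh38.p14 it is the 300-base window from 250 bases before to 50 bases after the listed start (chr17:51260296-51260595, plus strand). Capitals mark matches to CACGTG (E-box, the motif bound by MYC with MAX), CCAAT and GGGCGG (GC box), searched on both strands.
UTP18: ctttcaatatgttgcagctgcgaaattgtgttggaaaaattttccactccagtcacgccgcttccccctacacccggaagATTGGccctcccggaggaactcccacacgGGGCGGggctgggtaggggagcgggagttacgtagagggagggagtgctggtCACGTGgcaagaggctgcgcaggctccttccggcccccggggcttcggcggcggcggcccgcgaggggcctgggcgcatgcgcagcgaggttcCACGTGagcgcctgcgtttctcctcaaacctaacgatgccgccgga
Of the 53 tested ribosome biogenesis factors, 46 had a promoter in the RefSeq table, and 23 of these (50%) held CACGTG in at least 1 listed window. Counted in the same way, the share was 12.9% of the 9501 tested genes with a promoter. Of all 35116 promoters in the table, 7.26% held it, which is a share of single windows and not of genes. A match describes the letters of the window and does not show binding.

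Several genes of translation outside the ribosome fell. Of the cytosolic tRNA synthetases, 0 rose and 9 fell of 20 tested, with a median log2 change of -0.47 (unblocked 0 and 0, left-out 0 and 2 to 4, quantile 0 and 5 with median -0.28, 4-library 0 and 14). AARS, which charges alanine tRNA, fell (27.8 ± 5.05 against 61.5 ± 8.06 FPKM, log2 change -1.12, adjusted p = 8.23e-06, 0.0524 without the block). The mitochondrial seryl-tRNA synthetase SARS2, which is not in that list, had the lowest log2 change of the named genes, with 4.96 and 3.12 FPKM with compound B and 39.8 and 19.4 FPKM in untreated cells. The fit gave a log2 change of -2.54 (SE 0.18, adjusted p = 1.42e-17). EEF1A1, the elongation factor that carries aminoacyl-tRNA to the ribosome, had 2671 and 3986 FPKM with compound B and 4687 and 6431 FPKM in untreated cells, and it was listed at 0 in both compound C libraries. It gave a log2 change of -0.75 (SE 0.25, adjusted p = 0.0138, and 0.227 without the block), and lost its call without some libraries (adjusted p = 0.239 without compound B replicate 1, 0.116 without untreated replicate 1 and 0.198 without untreated replicate 2). SNHG4, a host transcript of small nucleolar RNAs, had 1.73 and 1.34 FPKM with compound B and 12.8 and 9.59 FPKM in untreated cells. Its untreated levels were several times higher, with a log2 change of -2.26 (SE 0.17, adjusted p = 6.18e-17).

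Enzymes of nucleotide synthesis fell in part. Among purine synthesis enzymes, 1 rose and 10 fell of 20 tested, with a median log2 change of -0.54 (unblocked 0 and 3, left-out 1 and 4 to 7). PFAS, the fourth enzyme of the de novo pathway, had 1.13 and 1.25 FPKM with compound B and 8.29 and 6.44 FPKM in untreated cells. The mean was 6.19-fold higher in untreated cells, with a log2 change of -1.92 (SE 0.17, adjusted p = 1.7e-14). ADSL, which acts later in the same pathway, fell too (35.6 ± 6.01 against 88.3 ± 14.6 FPKM, log2 change -1.29, adjusted p = 1.93e-06), as did the mitochondrial folate enzyme MTHFD1L (16.7 ± 1.13 against 39.2 ± 6.62 FPKM, log2 change -1.18, adjusted p = 1.6e-06, 0.0695 without the block). Among pyrimidine and deoxynucleotide enzymes, 3 rose and 9 fell of 21 tested, with a median log2 change of -0.35 (unblocked 1 and 2, left-out 1 to 2 and 3 to 6), with 1 reaching 1 FPKM only through compound B. DHODH, the mitochondrial enzyme of pyrimidine synthesis, fell (3.25 ± 0.181 against 8.48 ± 1.06 FPKM, log2 change -1.15, adjusted p = 1.16e-07) together with CTPS1, which makes CTP (12.6 ± 1.01 against 28.8 ± 2.32 FPKM, log2 change -1.13, adjusted p = 1.4e-06). TK2, the mitochondrial thymidine kinase, is that member, with 4.86 and 3.45 FPKM with compound B and 1.28 and 0.663 FPKM in untreated cells. Of the MYC and MAX network, 1 rose and 3 fell of 10 tested and 14 listed, with a median log2 change of -0.13 (unblocked 0 and 0, left-out 1 and 1). MYC itself had 97.1 and 60.9 FPKM with compound B and 147 and 69.9 FPKM in untreated cells. The groups overlapped and it was not called (log2 change -0.40, adjusted p = 0.144). MXD1, a MAX partner that opposes MYC, rose (5.17 ± 0.764 against 2.84 ± 0.0499 FPKM, log2 change 0.68, adjusted p = 0.000482, 0.122 without the block) and MXI1, of the same family, fell (3.15 ± 0.342 against 6.11 ± 1.35 FPKM, log2 change -0.77, adjusted p = 0.000169, 0.158 without the block).

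DNA replication and mitosis genes fell more often than they rose. Of replication origin and fork genes, 3 rose and 20 fell of 50 tested, with a median log2 change of -0.37 (unblocked 1 and 0, left-out 1 to 2 and 7 to 11, quantile 6 and 18 with median -0.25, 4-library 6 and 26). GINS4, a subunit of the replicative helicase, rose (22.8 ± 0.442 against 9.09 ± 1.64 FPKM, log2 change 1.25, adjusted p = 8.24e-08), whereas the origin recognition subunit ORC2 (14.2 ± 0.866 against 29.5 ± 6.92 FPKM, log2 change -0.98, adjusted p = 2.64e-05, 0.086 without the block) and the helicase subunit MCM5 (42.3 ± 0.52 against 82.3 ± 9.36 FPKM, log2 change -0.94, adjusted p = 0.000216, 0.0717 without the block) fell. Of homologous recombination and Fanconi genes, 2 rose and 5 fell of 30 tested, with a median log2 change of -0.05 (unblocked 0 and 0, left-out 0 to 2 and 3 to 4, quantile 2 and 7 with median 0.01). NBN, of the MRE11 complex, fell (29.4 ± 7.04 against 65.8 ± 29.8 FPKM, log2 change -1.08, adjusted p = 1.93e-05, 0.171 without the block), as did RAD51C (18.8 ± 0.993 against 36.7 ± 7.92 FPKM, log2 change -0.92, adjusted p = 0.000103, 0.0947 without the block). The median of this list was 0.05 without compound B replicate 2. Of mitosis and kinetochore genes, 0 rose and 15 fell of 45 tested, with a median log2 change of -0.42 (unblocked 0 and 0, left-out 0 and 7 to 14, 4-library 0 and 28). PLK1, a kinase of mitotic entry and spindle assembly, had 64.5 and 43.3 FPKM with compound B and 159 and 107 FPKM in untreated cells. The untreated libraries lay above both compound B libraries, with a log2 change of -1.29 (SE 0.22, adjusted p = 2.52e-06, and 0.0731 without the block). CENPA, the centromeric histone H3 variant, fell (27.1 ± 2.68 against 60.5 ± 4.41 FPKM, log2 change -1.13, adjusted p = 1.1e-05, 0.0614 without the block), and so did CDC20, an activator of the anaphase-promoting complex (61.9 ± 2.59 against 136 ± 29.5 FPKM, log2 change -1.11, adjusted p = 4.57e-05, 0.0589 without the block). Of cyclins, CDKs and E2F genes, 5 rose and 4 fell of 24 tested and 26 listed, with a median log2 change of 0.08 (unblocked 0 and 0, left-out 1 to 3 and 1 to 2), and the median was -0.02 without untreated replicate 1. Under quantile normalization, 6 of this list rose and 3 fell, with a median of 0.03. CCND1, the G1 cyclin D1, rose (75.4 ± 12 against 36.4 ± 4.77 FPKM, log2 change 1.03, adjusted p = 3.84e-05, 0.0994 without the block).

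Some inhibitors of the cell cycle were among the largest rises. CDKN1A, which encodes the CDK inhibitor p21, had 41.3 and 25.5 FPKM with compound B and 5.54 and 2.37 FPKM in untreated cells, and 4.69 and 3.17 FPKM with compound C. Both compound B libraries lay above all 4 other libraries, with a log2 change of 2.83 (SE 0.18, adjusted p = 2.87e-20). GADD45A, a growth arrest and DNA damage gene, had 78.4 and 45.5 FPKM with compound B and 9.47 and 6.73 FPKM in untreated cells. Its log2 change was 2.76 (SE 0.19, adjusted p = 7.91e-19). CDKN2B, the p15 inhibitor of CDK4 and CDK6, had 23.4 and 18.1 FPKM with compound B and 3.31 and 3.21 FPKM in untreated cells. The rise was of like size in both replicates, with a log2 change of 2.34 (SE 0.17, adjusted p = 1.56e-17). By contrast, CDKN1B fell (14.8 ± 2.58 against 21.8 ± 1.44 FPKM, log2 change -0.54, adjusted p = 0.0171). CDKN3 fell too (99.9 ± 9.46 against 206 ± 77 FPKM, log2 change -0.99, adjusted p = 0.00132). Neither fall was called without the block. In all, of CDK inhibitors and GADD45 genes, 5 rose and 2 fell of 9 tested and 11 listed, with a median log2 change of 0.52 (unblocked 4 and 0, left-out 4 to 5 and 0 to 1). Of the BCL2 family, which sets the threshold of apoptosis, 4 rose and 1 fell of 13 tested and 18 listed, with a median log2 change of 0.21 (unblocked 1 and 0, left-out 1 to 2 and 0 to 1), and the median was -0.03 without untreated replicate 2. PMAIP1, the BH3-only protein NOXA, rose (134 ± 18.5 against 49.5 ± 12.2 FPKM, log2 change 1.44, adjusted p = 2.9e-07). The other calls were rises of BCL2L1 (log2 change 0.74), BCL2L11 (0.73) and BOK (0.41) and a fall of BID (-0.64). None of those was called without the block.

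The promoter of CDKN1A is given as that of the gene with the third largest rise among those named (chr6:36678464-36678763, plus strand). Capitals mark GGGCGG or its complement.
CDKN1A: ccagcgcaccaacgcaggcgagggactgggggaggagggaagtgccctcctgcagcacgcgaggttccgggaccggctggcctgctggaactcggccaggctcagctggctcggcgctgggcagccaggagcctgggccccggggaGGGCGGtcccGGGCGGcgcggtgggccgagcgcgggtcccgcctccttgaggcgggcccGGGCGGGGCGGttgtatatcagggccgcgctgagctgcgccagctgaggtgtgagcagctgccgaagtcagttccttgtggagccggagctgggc
The window held 4 matches to GGGCGG, 2 of which overlap by 1 base, and no match to the other motifs searched, among them the cAMP response element (letters TGACGTCA) and the AP-1 site (letters TGANTCA). The GC box was present in at least 1 listed window of 77.9% of the tested genes with a promoter, so its presence is common.

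**Figure D3:**
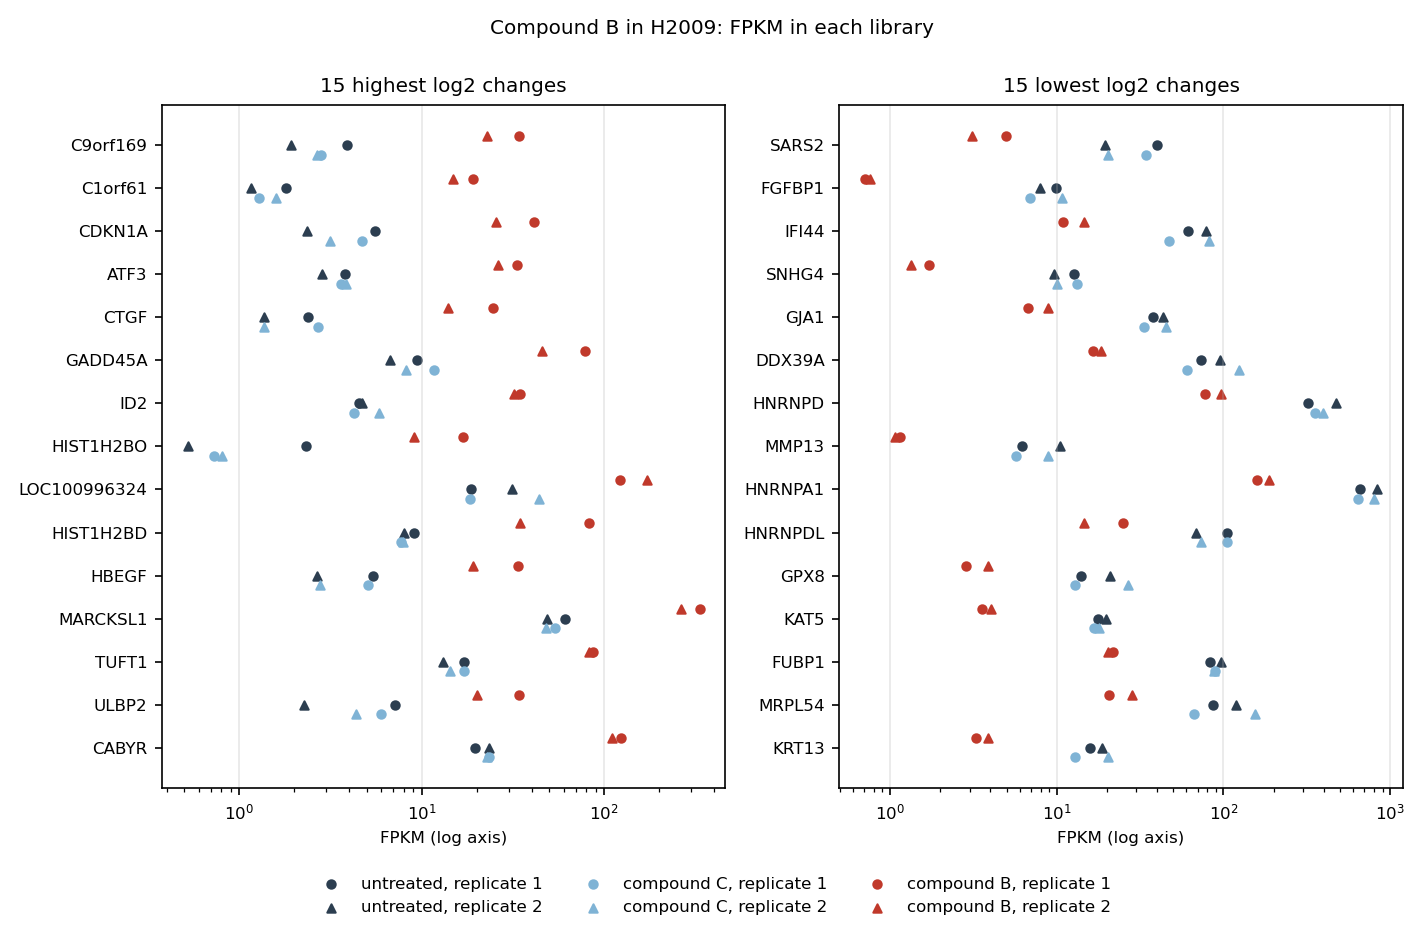
FPKM on a log axis in each of the 6 H2009 libraries (points, coloured by group) for the 15 genes with the largest rise and the 15 with the largest fall. Both compound B points lie beyond all untreated and compound C points for each of the 30 genes. For the untreated points this was fixed by the choice of genes.

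Replication-dependent histone genes, which supply the histones packaged on newly made DNA, mostly rose. Their mRNAs mostly end in a stem-loop in place of a poly(A) tail, while the libraries were made with a kit that selects poly(A) RNA. In this list, 22 rose and 1 fell of 28 tested and 65 listed, with a median log2 change of 1.27 (unblocked 13 and 0, left-out 20 to 24 and 1 to 4). Of the 28 tested, 5 reached 1 FPKM only through the compound B libraries. Their entry rests on their compound B values, so they favour a rise in the count and in the sum. The summed level over the 28 tested genes, with those 5 included, was 578.7 and 358.6 FPKM with compound B, 164.1 and 111.1 FPKM in untreated cells, and 138.2 and 137.9 FPKM with compound C. Listed genes under the filter are not in these sums. HIST1H2BK had the highest level, 261 and 152 FPKM with compound B and 73.9 and 49.1 FPKM in untreated cells. Both compound B libraries lay above all 4 other libraries. HIST1H2BO had 16.9 and 9.11 FPKM with compound B and 2.34 and 0.523 FPKM in untreated cells, and 0.729 and 0.809 FPKM with compound C. Both compound B libraries lay above the others, with a log2 change of 2.58 (SE 0.17, adjusted p = 1.15e-18). HIST1H2BD had 82.2 and 34.7 FPKM with compound B and 9.07 and 8.03 FPKM in untreated cells, where replicate 1 was higher than replicate 2 but both were above all other libraries, with a log2 change of 2.51 (SE 0.20, adjusted p = 8.71e-16). HIST2H2BE had 13.9 and 7.87 FPKM with compound B and 1.5 and 1.27 FPKM in untreated cells, again without overlap, with a log2 change of 2.27 (SE 0.16, adjusted p = 9.04e-18). A further 5 did not pass the test, and HIST2H2AC fell (0.654 ± 0.466 against 1.61 ± 0.626 FPKM, log2 change -0.67, adjusted p = 0.000174, 0.195 without the block). Histone genes are near-identical copies, so the split of reads among them is uncertain.

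**Figure D4:**
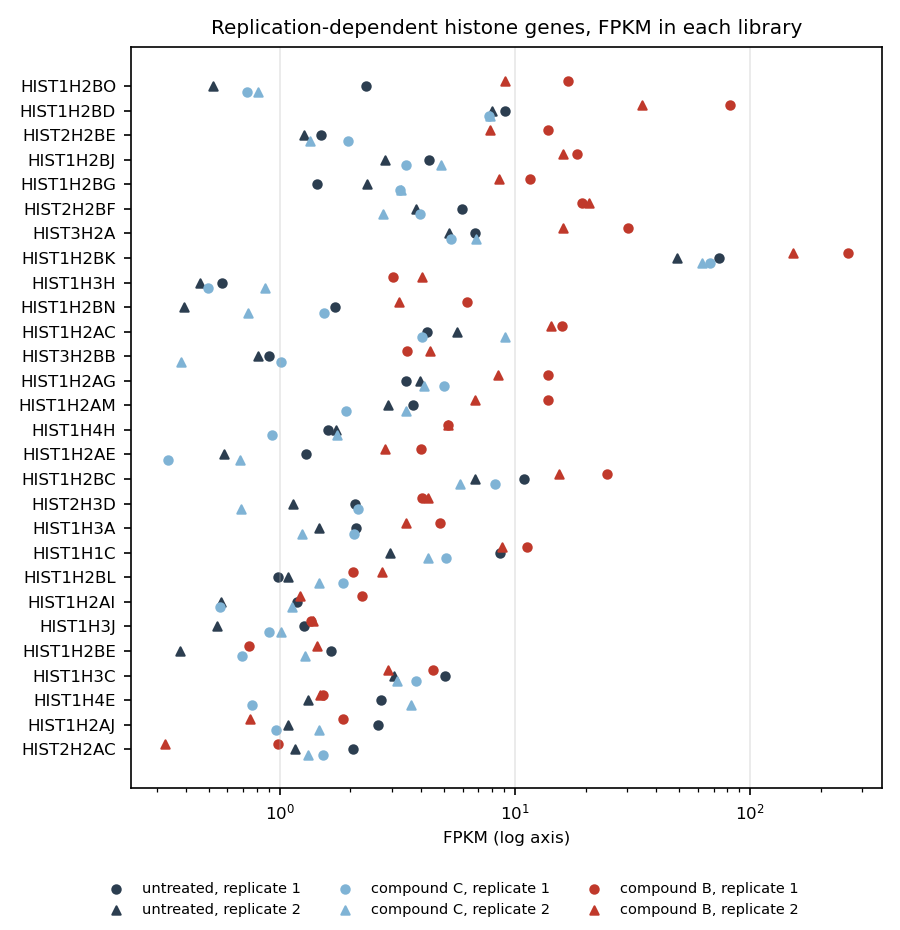
FPKM on a log axis (x axis) of the 28 tested replication-dependent histone genes (y axis) in each of the 6 libraries, with circles for replicate 1 and triangles for replicate 2. In the upper rows both red compound B points lie to the right of all untreated and compound C points; HIST2H2AC in the last row lies to their left.

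Promoters of 2 of these genes are shown, since 22 of the 28 tested members rose. Both windows are from RefSeq on GRCh38.p14, HIST1H2BO (H2BC17) at chr6:27893175-27893474, plus strand, and HIST2H2BE (H2BC21) at chr1:149886633-149886932, minus strand. Capitals mark the CCAAT box, the TATA box (letters TATAAA), the octamer bound by OCT1 (letters ATTTGCAT) and the GC box on either strand.
HIST1H2BO: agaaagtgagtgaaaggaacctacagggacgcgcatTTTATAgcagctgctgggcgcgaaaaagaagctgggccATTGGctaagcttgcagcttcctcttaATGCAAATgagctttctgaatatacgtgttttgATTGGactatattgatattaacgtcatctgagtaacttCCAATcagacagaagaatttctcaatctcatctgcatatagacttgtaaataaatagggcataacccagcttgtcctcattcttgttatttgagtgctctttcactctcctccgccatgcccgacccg
HIST2H2BE: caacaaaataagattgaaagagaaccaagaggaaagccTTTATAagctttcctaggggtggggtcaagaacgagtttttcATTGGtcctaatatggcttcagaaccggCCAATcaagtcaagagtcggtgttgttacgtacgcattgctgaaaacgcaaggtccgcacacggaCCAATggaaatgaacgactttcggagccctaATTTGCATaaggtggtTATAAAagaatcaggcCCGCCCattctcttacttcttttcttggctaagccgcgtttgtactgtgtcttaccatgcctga
The windows held 3 CCAAT matches each, and the octamer lay at -149 to -142 from the start in HIST1H2BO and at -46 to -39 in HIST2H2BE. Of the 28 tested histone genes, 24 had a promoter in the table. The octamer was found in 11 of them (45.8%, against 1.82% of tested genes with a promoter and 1.77% of all promoters), CCAAT in 22 (91.7%, against 44.1% and 34.6%) and TATAAA in 16 (66.7%, against 7.95% and 11.5%). The shares of genes count a match in any listed window of a gene, and the shares of all promoters count single windows. They describe letters and are not a test.

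Immediate early genes and growth factor receptors and ligands rose more often than they fell. ATF3, a stress-induced bZIP transcription factor, had 33.2 and 26.1 FPKM with compound B and 3.82 and 2.86 FPKM in untreated cells. Its level was low in untreated cells and several-fold higher with compound B, with a log2 change of 2.82 (SE 0.17, adjusted p = 2.7e-20). Among AP-1 and immediate early genes, 14 rose and 3 fell of 24 tested and 28 listed, with a median log2 change of 0.49 (unblocked 4 and 0, left-out 8 to 10 and 1 to 2); 3 of the tested members reached 1 FPKM only through the compound B libraries. MAFF rose (17.9 ± 9.54 against 2.74 ± 1.57 FPKM, log2 change 2.30, adjusted p = 1.34e-17) and JUND fell (13.5 ± 1.66 against 31.6 ± 10.9 FPKM, log2 change -1.13, adjusted p = 2.63e-06, 0.0732 without the block), while FOSB, tested only because of its compound B libraries, had 3.97 and 1.98 FPKM with compound B and 0.241 and 0.125 FPKM in untreated cells. Of MAPK feedback genes, 10 rose and 2 fell of 19 tested and 20 listed, with a median log2 change of 0.57 (unblocked 1 and 0, left-out 9 to 10 and 1), with 2 reaching 1 FPKM only through compound B. EPHA2, a receptor tyrosine kinase, rose (88.2 ± 24.3 against 25.2 ± 11.8 FPKM, log2 change 1.82, adjusted p = 3.83e-11, 0.0627 without the block), and SPRY1, of the Sprouty inhibitors of receptor signalling, fell (0.34 ± 0.0943 against 1.36 ± 0.00163 FPKM, log2 change -0.82, adjusted p = 3.5e-06, 0.0549 without the block). The related SPRY4, tested only because of its compound B libraries, had 3.59 and 2.09 FPKM with compound B and 0.709 and 0.323 FPKM in untreated cells. Of receptor tyrosine kinases and their ligands, 9 rose and 1 fell of 23 tested and 37 listed, with a median log2 change of 0.24 (unblocked 4 and 1, left-out 8 to 9 and 1, quantile 10 and 2 with median 0.14), with 2 reaching 1 FPKM only through compound B. HBEGF, a ligand of the EGF receptor, had 33.8 and 19.1 FPKM with compound B and 5.42 and 2.67 FPKM in untreated cells. The groups did not overlap, with a log2 change of 2.45 (SE 0.17, adjusted p = 4.72e-18). FGFR3, a fibroblast growth factor receptor, had 6.99 and 5.35 FPKM with compound B and 0.445 and 0.219 FPKM in untreated cells. It was tested only because of its compound B libraries, so no test is given. FGFBP1, a carrier that releases fibroblast growth factors, went the other way, with 0.709 and 0.762 FPKM with compound B and 9.88 and 7.9 FPKM in untreated cells. It was the second-lowest change among the named genes, with a log2 change of -2.50 (SE 0.17, adjusted p = 2.05e-18).

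Genes downstream of YAP, TGF-beta and BMP moved in both directions. CTGF (CCN2), a matricellular protein and YAP target, had 24.5 and 13.9 FPKM with compound B and 2.38 and 1.36 FPKM in untreated cells. Both compound B levels were high and the fit gave a log2 change of 2.78 (SE 0.16, adjusted p = 6.15e-21). Among YAP/TEAD target genes, 10 rose and 4 fell of 18 tested and 21 listed, with a median log2 change of 0.50 (unblocked 2 and 1, left-out 5 to 10 and 1 to 2, quantile 10 and 2 with median 0.41). NT5E, the ectonucleotidase CD73, rose (282 ± 62.1 against 78.3 ± 10.2 FPKM, log2 change 1.82, adjusted p = 1.11e-09), while ANKRD1, another common YAP target, fell (2.94 ± 0.0793 against 9.36 ± 0.306 FPKM, log2 change -1.39, adjusted p = 1.4e-09), as did CYR61, where the call rested on the block and on all libraries (137 and 89.6 FPKM with compound B and 214 and 134 FPKM in untreated cells, adjusted p = 0.183 without compound B replicate 1, 0.242 without compound B replicate 2, 0.358 without untreated replicate 1 and 0.198 without untreated replicate 2, and adjusted p = 0.367 without the block). Among BMP and TGF-beta response genes, 6 rose and 4 fell of 16 tested and 22 listed, with a median log2 change of 0.19 (unblocked 1 and 1, left-out 4 to 6 and 2 to 3). ID2, an inhibitor of bHLH transcription factors, had 34.7 and 31.9 FPKM with compound B and 4.56 and 4.7 FPKM in untreated cells. All compound B libraries were well above the untreated ones, with a log2 change of 2.60 (SE 0.18, adjusted p = 1.66e-18), whereas ID1 fell (30.6 ± 6.26 against 66.5 ± 22.7 FPKM, log2 change -1.07, adjusted p = 2.39e-05, 0.103 without the block), as did the ligand BMP4 (2.58 ± 0.329 against 8.72 ± 0.58 FPKM, log2 change -1.44, adjusted p = 2.3e-10). ADM, the vasodilator peptide adrenomedullin and a member of the hypoxia list, had 12.6 and 7.97 FPKM with compound B and 1.4 and 0.721 FPKM in untreated cells. The mean was 9.71-fold higher with compound B, with a log2 change of 2.44 (SE 0.15, adjusted p = 5.49e-20).

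Stress-response genes did not share a direction. Of integrated stress response (ATF4) genes, 7 rose and 8 fell of 25 tested and 26 listed, with a median log2 change of -0.09 (unblocked 0 and 1, left-out 3 to 5 and 4 to 7, quantile 6 and 8 with median 0.02), and the median turned to 0.01 without compound B replicate 1. PPP1R15A, the GADD34 phosphatase subunit, rose (71 ± 27.7 against 23.2 ± 9.15 FPKM, log2 change 1.57, adjusted p = 1.41e-09, 0.0731 without the block), while DDIT4, the REDD1 inhibitor of mTORC1, fell (6.61 ± 0.183 against 26.6 ± 0.386 FPKM, log2 change -1.86, adjusted p = 2e-12), as did TRIB3 (5.8 ± 1.94 against 13.1 ± 7.74 FPKM, log2 change -0.96, adjusted p = 1.45e-05, 0.266 without the block). Of HSF1 heat shock genes, 1 rose and 5 fell of 24 tested and 25 listed, with a median log2 change of -0.22 (unblocked 0 and 0, left-out 0 to 1 and 0, quantile 3 and 5 with median -0.02, 4-library 2 and 9). HSPA8, the constitutive HSC70 chaperone, had 908 and 1073 FPKM with compound B and 1925 and 3145 FPKM in untreated cells. It gave a log2 change of -1.32 (SE 0.34, adjusted p = 0.00139, and 0.16 without the block), and the call was lost when any 1 of the 4 libraries was left out (adjusted p = 0.0646 without compound B replicate 1, 0.32 without compound B replicate 2, 0.132 without untreated replicate 1 and 0.103 without untreated replicate 2). Of endoplasmic reticulum chaperones and unfolded protein response genes, 8 rose and 2 fell of 23 tested, with a median log2 change of 0.36 (unblocked 1 and 0, left-out 4 to 7 and 0 to 1), with 1 reaching 1 FPKM only through compound B. DNAJB9, an ER co-chaperone, rose (14.3 ± 0.214 against 6.36 ± 1.1 FPKM, log2 change 1.07, adjusted p = 2.22e-06, 0.0792 without the block). ERN1, the IRE1 sensor kinase, is the member tested only because of compound B, with 2.8 and 1.98 FPKM with compound B and 0.74 and 0.611 FPKM in untreated cells. Of proteasome subunits, 0 rose and 11 fell of 33 tested, with a median log2 change of -0.48 (unblocked 0 and 0, left-out 0 and 1 to 6, quantile 1 and 8 with median -0.26, 4-library 0 and 23). PSMD3, of the regulatory particle, fell (82.8 ± 0.587 against 173 ± 2.96 FPKM, log2 change -1.05, adjusted p = 0.000142, 0.0553 without the block). Of NRF2 target genes, 3 rose and 3 fell of 19 tested and 24 listed, with a median log2 change of -0.25 (unblocked 1 and 0, left-out 2 to 3 and 2 to 3, quantile 7 and 3 with median 0.16, 4-library 6 and 5), with 1 reaching 1 FPKM only through compound B. Here the median turned to 0.04 without compound B replicate 2. OSGIN1, an oxidative stress gene, rose (11.9 ± 2.89 against 2.04 ± 0.508 FPKM, log2 change 2.08, adjusted p = 2.18e-16), and HMOX1, heme oxygenase, fell (5.63 ± 0.226 against 14.5 ± 4.96 FPKM, log2 change -1.19, adjusted p = 2.78e-07, 0.0588 without the block).

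Metabolic groups also split. Of cholesterol synthesis and SREBP2 genes, 10 rose and 1 fell of 23 tested and 26 listed, with a median log2 change of 0.41 (unblocked 1 and 0, left-out 3 to 7 and 0). SC5D, a late enzyme of sterol synthesis, rose (14.6 ± 3.42 against 5.74 ± 0.0438 FPKM, log2 change 1.20, adjusted p = 2.27e-07). Of lysosome and autophagy genes, 10 rose and 2 fell of 28 tested and 30 listed, with a median log2 change of 0.24 (unblocked 2 and 0, left-out 5 and 0 to 1). The ATG8-family genes MAP1LC3B (68.3 ± 12.3 against 28.1 ± 0.594 FPKM, log2 change 1.24, adjusted p = 9.85e-07) and GABARAPL1 (5.61 ± 0.891 against 1.92 ± 0.698 FPKM, log2 change 1.19, adjusted p = 1.28e-08) rose. Of glycolysis and hypoxia genes, 4 rose and 10 fell of 28 tested and 30 listed, with a median log2 change of -0.41 (unblocked 1 and 1, left-out 1 to 3 and 4 to 5, quantile 4 and 8 with median -0.12). The rise of ADM was the largest of this list. PDK1, the kinase that inhibits pyruvate dehydrogenase, fell (4.77 ± 0.311 against 16.6 ± 1.04 FPKM, log2 change -1.61, adjusted p = 8.42e-11), as did hexokinase HK2 (5.9 ± 1.01 against 16.1 ± 2.62 FPKM, log2 change -1.30, adjusted p = 3.2e-08, 0.0628 without the block). Of nuclear-encoded respiratory chain subunits, 0 rose and 9 fell of 68 tested, with a median log2 change of -0.27 (unblocked 0 and 1, left-out 0 and 1 to 7, quantile 3 and 7 with median -0.06, 4-library 0 and 23).

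Immune genes showed falls of interferon-stimulated genes and rises of NF-kappa B feedback genes. IFI44, an interferon-induced gene, had 10.8 and 14.7 FPKM with compound B and 61.5 and 78.3 FPKM in untreated cells. Both compound B libraries lay below both untreated libraries, with a log2 change of -2.37 (SE 0.20, adjusted p = 4.52e-15). Of interferon-stimulated genes, 4 rose and 11 fell of 29 tested and 41 listed, with a median log2 change of -0.37 (unblocked 1 and 2, left-out 2 to 3 and 8 to 10). IFIT3 (7 ± 2.26 against 30.1 ± 9.51 FPKM, log2 change -1.96, adjusted p = 2.14e-13) and IFIT1 (2.77 ± 1.17 against 8.5 ± 1.12 FPKM, log2 change -1.36, adjusted p = 2.34e-09, 0.0674 without the block) fell, and IRF1, a transcription factor of the pathway, rose (13.6 ± 2.21 against 5.26 ± 1.38 FPKM, log2 change 1.24, adjusted p = 2.72e-08). Among NF-kappa B targets and feedback genes, 6 rose and 1 fell of 16 tested and 29 listed, with a median log2 change of 0.26 (unblocked 0 and 0, left-out 6 and 0 to 1). Under quantile normalization, 7 of this list rose and 1 fell, with a median of 0.17. TNFAIP3, the A20 inhibitor of NF-kappa B, rose (7.77 ± 2.75 against 2.73 ± 1.16 FPKM, log2 change 1.23, adjusted p = 5.46e-09, 0.0961 without the block). ULBP2, a ligand of the NKG2D receptor of natural killer cells, had 34.3 and 20.2 FPKM with compound B and 7.17 and 2.26 FPKM in untreated cells. The groups did not overlap, with a log2 change of 2.40 (SE 0.18, adjusted p = 1.37e-16).

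Genes of cell shape and lineage changed in both directions. Of intermediate filament, junction and adhesion genes, 6 rose and 5 fell of 36 tested and 40 listed, with a median log2 change of 0.08 (unblocked 1 and 2, left-out 4 to 5 and 3 to 4, quantile 8 and 5 with median 0.23). The median was -0.01 without compound B replicate 2. SNAI1, a repressor of epithelial genes, rose (17.2 ± 7.09 against 3.4 ± 1.26 FPKM, log2 change 2.02, adjusted p = 5.08e-15), and VIM, the mesenchymal filament vimentin, fell (20.8 ± 0.766 against 86.1 ± 11.8 FPKM, log2 change -1.99, adjusted p = 3.69e-12). GJA1, the gap junction protein connexin 43, had 6.72 and 8.86 FPKM with compound B and 38 and 43.3 FPKM in untreated cells. The compound B libraries were far below, with a log2 change of -2.25 (SE 0.19, adjusted p = 4e-15), and the epithelial keratin KRT13 was also lower, with 3.26 and 3.86 FPKM with compound B and 15.8 and 18.6 FPKM in untreated cells. Of tubulin and actin genes, 8 rose and 3 fell of 30 tested and 32 listed, with a median log2 change of 0.17 (unblocked 0 and 1, left-out 5 to 7 and 1 to 2, quantile 17 and 3 with median 0.49, 4-library 13 and 9). VCL, vinculin of focal adhesions, rose (174 ± 35.2 against 66.2 ± 11.5 FPKM, log2 change 1.37, adjusted p = 6.58e-07, 0.0605 without the block), while TUBB2B fell (1.27 ± 0.367 against 4.22 ± 1.05 FPKM, log2 change -1.20, adjusted p = 6.65e-09). Of the 10 epithelial and lung markers, CDH1 (E-cadherin) was called higher, with a log2 change of 0.61, and MUC1, KRT19, NKX2-1 and SFTA3 were called lower, while KRT7, KRT8, KRT18, EPCAM and FOXA2 did not pass. NKX2-1, the lung lineage transcription factor, had 25.6 and 18.7 FPKM with compound B and 106 and 60.8 FPKM in untreated cells. The untreated libraries were above both compound B libraries. Its neighbour SFTA3 had 16.3 and 15.1 FPKM with compound B and 56.3 and 65.6 FPKM in untreated cells, with the same order of groups. Of the 2 squamous markers tested, SOX2 had 2.7 and 2.05 FPKM with compound B and 9.07 and 10.6 FPKM in untreated cells, and SERPINB5 did not pass, with a log2 change of 0.35 (adjusted p = 0.136). Of circadian clock genes, 2 rose and 5 fell of 16 tested and 21 listed, with a median log2 change of 0.07 (unblocked 0 and 1, left-out 2 and 4 to 5, quantile 2 and 5 with median -0.04), with a median of -0.01 without untreated replicate 1. CIART, a repressor of the clock, fell (2.18 ± 0.307 against 7.28 ± 1.01 FPKM, log2 change -1.38, adjusted p = 1.04e-09), as did ARNTL, which encodes the core activator BMAL1 (4.4 ± 0.757 against 15.1 ± 6.18 FPKM, log2 change -1.53, adjusted p = 3.06e-10, 0.0596 without the block), while NR1D1, a nuclear receptor that represses ARNTL, rose (9.39 ± 5.3 against 3.32 ± 1.25 FPKM, log2 change 1.20, adjusted p = 3.01e-08, 0.163 without the block).

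The remaining genes of the 15 largest changes in each direction belong to no list. Among the rises, C9orf169 had 34 and 22.9 FPKM with compound B and 3.88 and 1.92 FPKM in untreated cells. It was the largest rise of the named genes, with a log2 change of 2.94 (SE 0.18, adjusted p = 7.95e-21). C1orf61 had 19.2 and 14.9 FPKM with compound B and 1.8 and 1.17 FPKM in untreated cells, with a log2 change of 2.87 (SE 0.17, adjusted p = 4.34e-21). MARCKSL1, a regulator of actin, had 334 and 263 FPKM with compound B and 60.7 and 48.7 FPKM in untreated cells, and rose by 2.43 on the log2 scale, which made it also 1 of the 5 largest gains in FPKM. TUFT1, tuftelin (84.4 ± 2.89 against 15.1 ± 2.89 FPKM, log2 change 2.42, adjusted p = 5.14e-16), CABYR, a calcium-binding protein known from sperm (117 ± 9.67 against 21.4 ± 2.56 FPKM, log2 change 2.40, adjusted p = 2.95e-15), and LOC100996324 (147 ± 34.2 against 25 ± 8.88 FPKM, log2 change 2.53, adjusted p = 1.55e-15) rose likewise. Among the falls were MMP13, a collagenase (1.11 ± 0.0523 against 8.36 ± 3.03 FPKM, log2 change -2.11, adjusted p = 9.9e-16), and GPX8, a peroxidase of the endoplasmic reticulum (3.37 ± 0.716 against 17.4 ± 4.84 FPKM, log2 change -2.06, adjusted p = 2.59e-14). The largest gains in FPKM included MYL12A, a myosin light chain, with 606 and 582 FPKM with compound B and 237 and 352 FPKM in untreated cells. It gave a log2 change of 1.04 (SE 0.27, adjusted p = 0.00159, and 0.184 without the block), and lost its call without some libraries (adjusted p = 0.299 without compound B replicate 1, 0.127 without untreated replicate 1 and 0.069 without untreated replicate 2). PHLDA2 had 456 and 189 FPKM with compound B and 179.8 and 74.3 FPKM in untreated cells, with a rise in both replicates and a log2 change of 1.34 (SE 0.23, adjusted p = 4.42e-06, and 0.222 without the block).

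Rises and falls were unevenly spread over levels of expression. Among 3380 tested genes with a mean of 1 to 5 FPKM, 30.1% were called higher and 17.7% lower, with a median change of 0.11. From 5 to 20 FPKM (4311 genes) the shares were 21.2% and 19.7%, and from 20 to 100 FPKM (3116 genes) 11.2% and 24.2%. Above 100 FPKM (905 genes) only 3.76% were called higher and 22% lower, with a median change of -0.33. The filter adds to this pattern at the low end: of 245 genes that were under 1 FPKM without the compound B libraries, 207 were called higher and 0 lower.

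**Figure D5:**
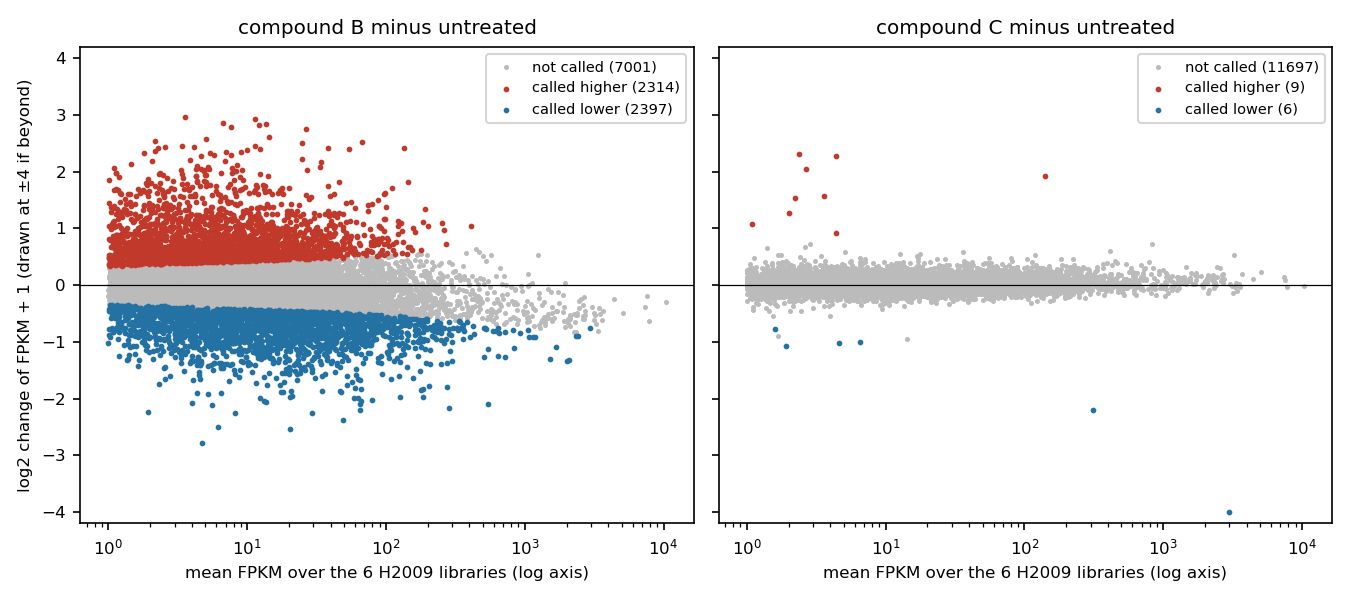
Log2 change with compound B (y axis) against the mean level over the 6 libraries (x axis, log scale) for the 11712 tested genes. Points run from more rises at 1 to 5 FPKM (median 0.11) to more falls above 100 FPKM (median -0.33).

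Few genes were called with compound C at the matched dose and time, which does not show that the others were unchanged. It was followed by 15 calls (0.128% of 11712), 9 higher (0.0768%) and 6 lower (0.0512%), with 119 genes at an unadjusted p under 0.05, fewer than the 585.6 that 5% of the genes would be. Several of the 15 were copies or overlapping genes, and EEF1A1, listed at 0 in both compound C libraries, was among them. Of the 4711 genes called with compound B, 4692 had a change with compound C under 0.5 in size. This count was not set against the same count over all tested genes, so it is not particular to the called genes. Compared directly, 4791 genes differed between compound B and compound C (40.9%), with 2273 higher (19.4%) and 2518 lower (21.5%) with compound B; without the block, 504 did. Of the genes that rose against untreated cells, 2055 of 2314 were also higher than with compound C, and of those that fell, 2169 of 2397 were also lower. The untreated and compound C comparisons share the compound B libraries. For CDKN1A the difference from compound C was 2.78 (2.43 to 3.13), for KAT5 -1.93 (-2.29 to -1.58) and for HIST1H2BO 2.93 (2.58 to 3.28), each on the log2 scale with its 95% confidence interval.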

How the data were processed

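RNA was measured in 6 H2009 libraries of the compound table, 2 each for compound B, compound C and untreated cells. The deposited values are gene-level FPKM from the authors. Per the submitters' processing notes, CASAVA 1.8.2, TopHat2 2.0.12 and Cufflinks 2.2.1 were used on the hg19 build. Per the labels' protocols, RNA was lysed on the plate and libraries came from 4 µg of RNA with a stranded mRNA kit. The low values do not step in whole reads, so the depth is unknown and no counting interval is given.

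Differences of log2(FPKM + 1) were fitted with limma 3.58.1 in R 4.3.3 as 3 group means plus the replicate number as a block, over genes with a mean of at least 1 FPKM. Variances were moderated by empirical Bayes with a trend over the mean level. P-values were adjusted by Benjamini-Hochberg, with a threshold of 0.05. With 2 residual and 57.4 prior degrees of freedom, the errors come mostly from that trend. The labels do not say what a replicate number marks. Deviations of libraries with the same number correlated across genes (Pearson r 0.76 for compound B and untreated, 0.68 for compound B and compound C, 0.70 for compound C and untreated), but there are only 2 numbers, so a pairing is not established. The block follows the rule that defines this comparison.

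Named genes are RUVBL1 and RUVBL2, the 15 highest and 15 lowest changes among called genes with both compound B libraries beyond both untreated ones and a mean of at least 5 FPKM, the 3 highest and 3 lowest called members of each list, and the 5 largest gains and losses of FPKM. Of these, the text gives a part, and 1 list and some genes are not reported here. HIST1H2BK, MYC, NKX2-1, SFTA3 and SOX2 are given as list members. The genes and the 44 lists were chosen with earlier results of these data known, so no list is independent evidence. The fit was tested on simulated data. Alternatives changed the block, libraries, pseudocount, filter, scaling and trend. The list alternatives without 1 library or with median scaling were chosen after seeing the data. Promoters came from RefSeq (GRCh38.p14) and matched 9501 of 11712 tested genes (81.1%). Of the matched genes, 6802 had a single listed start. A gene with several counted as holding a motif if any of its windows did. The build of the promoters differs from that of the FPKM, and they were joined by symbol only.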

Additional observations from a re-analysis of the deposited data

How the results depend on the processing

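No named gene changed direction under any alternative run. The balance of calls did: 49.1% of the compound B calls were higher with the block, 63.1% without the block, 55.2% with no filter and 41.9% with a mean FPKM of at least 5. The replicate block mattered most. Without it, 548 genes were called with compound B (346 higher, 202 lower), all 548 among the 4711 of the fit with the block, 1 with compound C (0 higher, 1 lower), and 504 between the compounds (313 higher, 191 lower). The cause of the loss was not tested. Raising the filter to a mean FPKM of at least 5 left 3115 compound B calls, 1304 of them higher, and 1290 genes higher with compound B than with compound C. It tests fewer genes. With 1 library left out, the compound B count ranged from 2473 to 5909 (higher 1294 to 2807, lower 1179 to 3102), the direct comparison of both compounds from 2720 to 5281 (higher 1437 to 2347, lower 1283 to 2934), and the compound C count from 16 to 128 (higher 5 to 111, lower 6 to 17). Where a library was left out, the lone sample of its group was assumed to vary like the others.

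The compound C count of 15 was small and moved under most settings: 2 (1 higher, 1 lower) with all 12 libraries, 4 (3 and 1) with a pseudocount of 5, 1 (0 and 1) with no filter, 5 (1 higher) with a mean FPKM of at least 5, 6 (4 and 2) with quantile normalization and 3 (2 and 1) with no variance trend. Without genes listed at 0, 5 were higher. Of 209 named genes, 136 lost their call without the block, 65 without untreated replicate 1, 52 without compound B replicate 2, 49 without untreated replicate 2 and 42 without compound B replicate 1, and 71 kept their side of the threshold in every alternative. Over all genes, 288 were called in every setting, 151 higher and 137 lower. The unknown depth limits what can be said of genes with low FPKM.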
